A study of Mus musculus with 2 samples.

Results

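The genes described here encode enzymes of haem synthesis and proteins of iron uptake and storage: Alas1, Alad, Uros, Urod, Cpox, Ppox, Fech, Tfrc and Fth1. They are 9 of the 8251 named genes on the arrays, found as every probe set whose platform symbol, current or older, is one of these names. That gave 14 gene probe sets and 3 control probe sets. The set was chosen from results of these same arrays, in which the ratio of Alad was among the largest between the clones, so all levels and ratios below are a description with no test. The cells were 2 clones of mouse mesoangioblasts, vessel-associated mesodermal progenitor cells, named D16 and D351. Both go back to C57BL6 embryos of embryonic day 9.5, whose dorsal aorta was cultured as an explant for 5 days. Single cells were then cloned by limiting dilution over fibroblast feeders stopped from dividing with mitomycin C, in RPMI medium containing 20% fetal calf serum, and the clones were expanded on gelatin. The labels name no treatment or genetic change for either clone. Total RNA of each clone was measured on 1 Affymetrix U74A array, so there is no replicate of either clone and no test of any gene.

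Haem is an iron-containing ring made by a chain of enzymes that begins in the mitochondrion, continues in the cytosol and ends in the mitochondrion again. Every cell that respires needs it for cytochromes, and red cell precursors make far more of it than other cells. Iron enters most cells bound to transferrin through the transferrin receptor, and what is not used is stored in ferritin. Low iron stabilises the receptor's messenger RNA and holds back translation of ferritin, so that for ferritin the RNA level alone does not give the protein level.

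Of the 9 genes, 8 were at or above the intensity floor of 17.4 in at least 1 clone. The floor is the 40th percentile of the scaled values, and a gene below it is written as having only a bound. Alad, Cpox and Urod, 3 of these 8 genes, were higher in D16 by 2-fold or more, as were 8.87% of all 6098 genes at or above the floor. Ppox, 1 of 8, was higher in D351 by 2-fold or more, as were 10.6% of all genes. Nothing is read from these counts, since the ratios entered the choice of genes. The other 4 genes lay within 2-fold. The median log2 ratio of D351 over D16 was -0.62 for the 8 genes and -0.03 for all genes. Without suffixed probe sets, which leaves 6 of the 8 genes, it was -0.040. All 3 genes past 2-fold in D16 and the 1 past 2-fold in D351 are enzymes of haem synthesis, and the pathway did not lie on 1 side: 3 of its 6 measured enzymes were lower in D351 and 3 higher. As RNA was taken from whole cultures, fewer expressing cells and less RNA per cell cannot be told apart.

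The promoters of the 4 enzyme genes at least 2-fold apart are shown because 3 of them were higher in the same clone and 1 in the other. Each is the 250 bases before the farthest upstream start in RefSeq, build GRCm38.p6, read 5′ to 3′ on the gene's strand. Capitals mark matches on either strand to the GC box (letters GGGCGG), to the CCAAT box (the letters of its name) or to the E-box (letters CACGTG). The TATA box (letters TATAAA), the GATA site (letters AGATAA) and the antioxidant response element core (TGACNNNGC) were also searched on both strands, and these windows held no match to them. The motifs do not overlap in these windows.
Alad promoter, chr4:62520064-62520313, minus strand: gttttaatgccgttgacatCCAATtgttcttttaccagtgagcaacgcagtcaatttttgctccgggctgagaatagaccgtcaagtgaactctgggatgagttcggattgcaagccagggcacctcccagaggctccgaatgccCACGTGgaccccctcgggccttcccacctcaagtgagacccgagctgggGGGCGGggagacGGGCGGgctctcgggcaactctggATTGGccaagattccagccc
Urod promoter, chr4:116994414-116994663, minus strand: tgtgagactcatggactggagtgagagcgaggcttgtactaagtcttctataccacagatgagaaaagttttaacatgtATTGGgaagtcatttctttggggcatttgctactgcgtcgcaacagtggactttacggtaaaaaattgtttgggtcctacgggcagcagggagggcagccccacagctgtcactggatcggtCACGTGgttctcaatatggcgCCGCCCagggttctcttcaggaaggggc
Cpox promoter, chr16:58669958-58670207, plus strand: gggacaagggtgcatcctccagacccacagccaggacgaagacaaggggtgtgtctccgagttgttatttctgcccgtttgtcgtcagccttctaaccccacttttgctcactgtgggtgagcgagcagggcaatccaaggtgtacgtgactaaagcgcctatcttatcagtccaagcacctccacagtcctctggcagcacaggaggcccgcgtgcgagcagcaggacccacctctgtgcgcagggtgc
Ppox promoter, chr1:171281187-171281436, minus strand: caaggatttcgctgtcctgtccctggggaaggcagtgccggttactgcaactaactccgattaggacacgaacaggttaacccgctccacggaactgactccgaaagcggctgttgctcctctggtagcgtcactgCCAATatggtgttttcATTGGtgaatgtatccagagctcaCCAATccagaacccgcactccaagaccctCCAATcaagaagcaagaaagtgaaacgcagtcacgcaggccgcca

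The Alad window held 2 GC boxes, 2 CCAAT boxes and 1 E-box, and the Urod window 1 of each. The Cpox window, of a gene that was also higher in D16, held none of the 6 motifs in the letters given. Other spellings of these sites, among them those of the GATA site, were not searched. The Ppox window held 4 CCAAT boxes and no GC box or E-box. Over the windows of all 27025 genes in the table, 33.0% held a GC box, 34.5% a CCAAT box and 6.04% an E-box. No motif was thus found in all 3 promoters of the genes higher in D16. A match is a string of letters and was not tested as a site. For Alad the table lists 2 starts, and the arrays do not tell which was used.

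**Figure D1:**
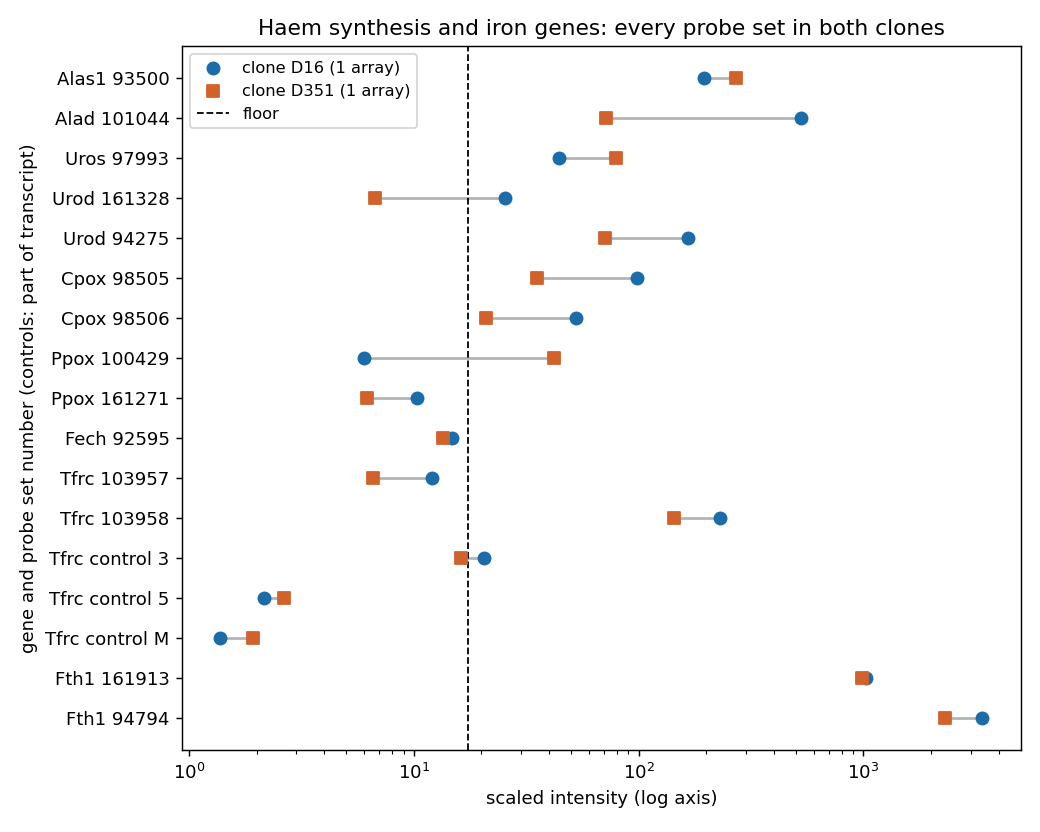
Scaled intensity (log axis) of every probe set of the 9 genes in clone D16 (circles) and clone D351 (squares), with 1 array per clone, no error bars and the floor of 17.4 as a dashed line. Alad is the widest pair with both values above the floor (528 and 71.9), while the Fech probe set (14.7 and 13.4) lies under the floor in both clones.

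Alas1 encodes the aminolevulinate synthase of cells outside the red cell lineage, the first and usually rate-limiting enzyme of the pathway. Its level was 196 in D16 and 272 in D351. D351 was the higher clone by 1.38-fold, a log2 ratio of 0.47. Genes read by several probe sets show the part of the error that these arrays can give: over 806 such genes, log2 ratios of 1 gene spread with an SD of 0.52, and the Alas1 ratio lies inside it. That spread leaves out differences between cultures of 1 clone.

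Alad encodes aminolevulinate dehydratase, the cytosolic enzyme that joins a pair of aminolevulinate molecules into the pyrrole porphobilinogen. Its single probe set measured 528 in D16 and 71.9 in D351. Both values lie well above the floor, and D16 was higher by 7.34-fold, a log2 ratio of -2.88. This was the 10th lowest of the log2 ratios of the 5198 genes measured in both clones. Of 1774 genes with a mean level within 2-fold of that of Alad, 22 (1.24%) had a ratio of this size or larger in either direction. With 1 probe set, no second reading of the gene is available on the array.

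Uros encodes uroporphyrinogen III synthase, which closes the ring. It measured 44.0 in D16 and 79.5 in D351, so D351 was higher by 1.80-fold. The log2 ratio of 0.85 exceeds the spread between probe sets but not the 2-fold threshold. Of 2268 genes of a like level, 26.1% had a ratio at least as large.

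Urod encodes uroporphyrinogen decarboxylase, the last cytosolic step before the intermediate returns to the mitochondrion. By its brighter probe set it measured 165 in D16 and 71.1 in D351, so D16 was higher by 2.33-fold. The dimmer probe set measured 25.5 in D16 and 6.71, below the floor, in D351, which gives at least 1.46-fold in the same direction. The pair of probe sets thus had the same sign, with log2 ratios of -1.22 and, as a bound, -0.55. Urod was no longer past 2-fold with its probe sets averaged (-0.88) or with hybridization control scaling (-0.82).

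Cpox encodes coproporphyrinogen oxidase, an enzyme of the space between the mitochondrial membranes. Its probe sets measured 98.4 and 52.5 in D16, and 35.2 and 21.0 in D351. Both readings were higher in D16, with log2 ratios of -1.48 and -1.32, a gap of 0.16 that is smaller than the spread between probe sets of a gene. The second reading in D351 lies just above the floor. Both probe sets carry a suffix (i or r) that marks a reduced choice of probes, and both come from the same transcript record.

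Ppox encodes protoporphyrinogen oxidase, the next enzyme, and was the only 1 of the 6 measured enzymes past 2-fold toward D351 in the main setting. With hybridization control scaling Uros passed it too, at a log2 ratio of 1.25. The brighter probe set of Ppox measured 6.0, below the floor, in D16 and 42.0 in D351, at least 2.42-fold higher. The other probe set was below the floor in both clones, at 10.3 and 6.21, so the direction rests on 1 reading near the floor. Fech encodes ferrochelatase, which inserts iron into the ring. Its only probe set was below the floor in both clones, at 14.7 in D16 and 13.4 in D351, and has no ratio.

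Differences between neighbouring steps do not depend on a common scaling of an array. From Alas1 to Alad the log2 ratio dropped by 3.34, and from Alad to Uros it differed by 3.73. From Uros to Urod it dropped by 2.07. Urod and Cpox, which act in succession, differed by 0.26. For comparison, the spread between probe sets gives an SD of 0.73 for a difference between 2 genes. The first 3 of these gaps are larger than that SD and the gap between Urod and Cpox is smaller. Both gaps that involve Alad had to be large, since its large ratio entered the choice of genes. The SD also leaves out differences between cultures of 1 clone, so nothing is read from these sizes. Alas1 and Uros were both higher in D351 while Alad was higher in D16.

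**Figure D2:**
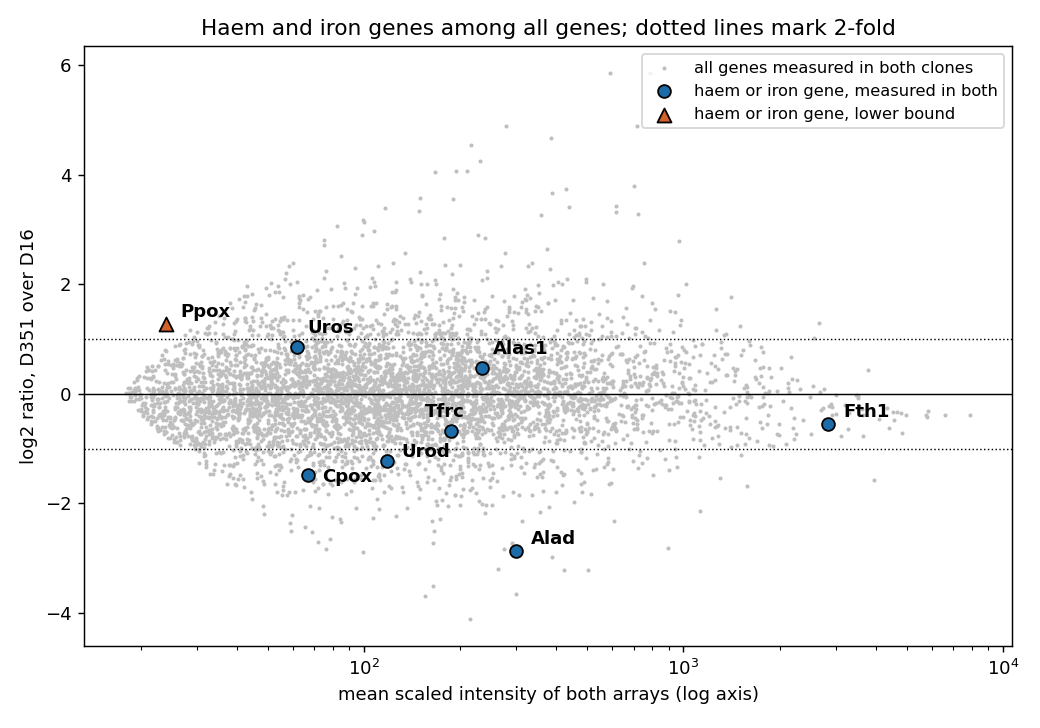
Log2 ratio of D351 over D16 against the mean scaled intensity (log axis) for the 5198 genes measured in both clones (grey), with the 7 haem and iron genes measured in both as circles and Ppox, a lower bound, as a triangle. Alad, at -2.88, lies at the lower edge of the cloud, while Alas1, Tfrc and Fth1 lie between the dotted 2-fold lines.

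Tfrc encodes the transferrin receptor, the main route of iron into proliferating cells. The probe set with the highest level measured 230 in D16 and 143 in D351, so D16 was higher by 1.61-fold, a log2 ratio of -0.68. The array holds 4 further probe sets for this gene, all from the same transcript record by their names or annotation. Of these, the second gene probe set measured 12.1 and 6.61, and the control probe sets for the 5′ and middle parts of the transcript 2.16 and 2.65, and 1.38 and 1.93, all below the floor. The control probe set for the 3′ part measured 20.4 in D16 and 16.2 in D351, the latter below the floor. The size of the Tfrc ratio therefore rests on 1 probe set, of the suffix g. The level of the receptor cannot be read from the others.

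Fth1 encodes the heavy chain of ferritin, the subunit that oxidises iron for storage. Its probe sets measured 3381 and 1022 in D16, and 2312 and 985 in D351. Both readings were a little higher in D16, with log2 ratios of -0.55 and -0.05. The gap of 0.50 between them is about as large as the spread between probe sets of a gene. Ferritin genes have near-identical processed copies in the genome, so these probe sets may also read other transcripts. Tfrc and Fth1, which iron regulates in opposite directions after transcription, had log2 ratios that differed by 0.14.

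All 8 genes kept their direction under each alternative that gave a value, but sizes moved with the scaling. Scaling on the 9 hybridization controls took the median over all genes from -0.03 to 0.34 and that over the 8 genes from -0.62 to -0.22 (log2 ratios). In that setting 2 of the 8 genes, Alad (-2.48) and Cpox (-1.09), passed 2-fold toward D16, and 2, Ppox (1.47) and Uros (1.25), passed it toward D351. The shares of all genes in that setting were 4.10% toward D16 and 19.9% toward D351. Of all genes past 2-fold, 45.6% were higher in D16 in the main setting and 17.1% with this scaling.

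**Figure D3:**
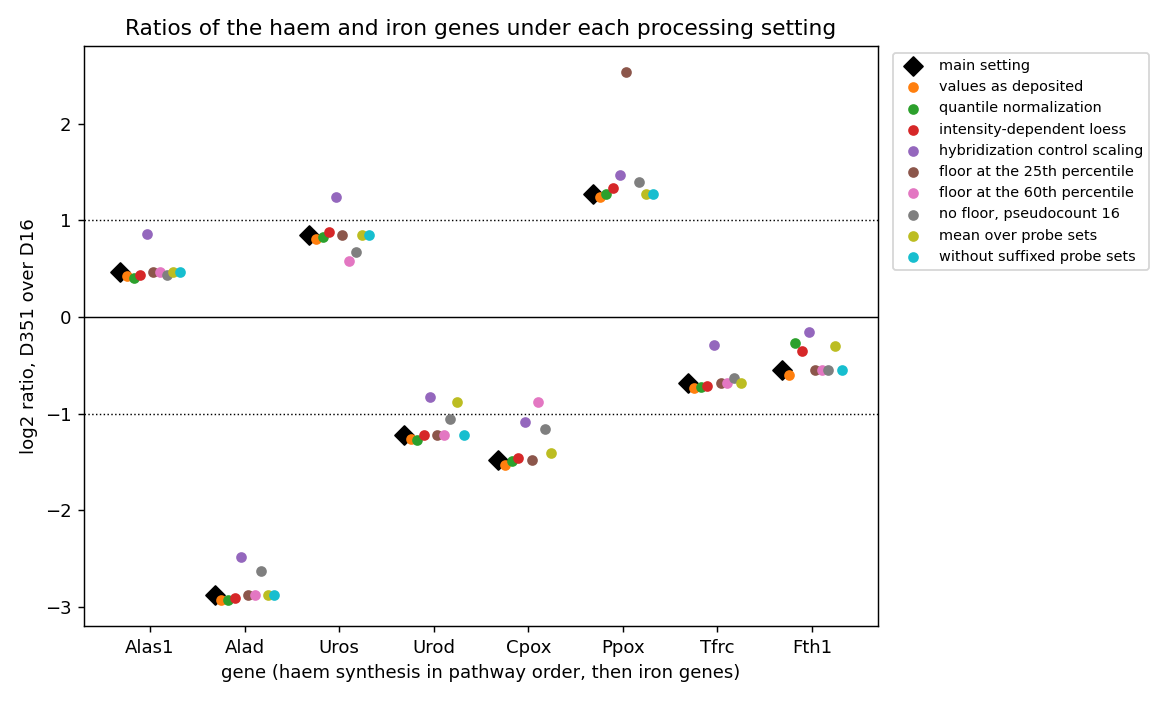
Log2 ratio of D351 over D16 for the 8 genes at or above the floor under the main setting (black diamonds) and each alternative (circles), with dotted lines at 2-fold. Each gene stays on its side of 0 in all settings drawn, from -2.93 to -2.48 for Alad and from -0.60 to -0.15 for Fth1.

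Other genes of the pathway did not share 1 direction. Of 79 listed genes of haem synthesis, mitochondrial iron, haem turnover and iron handling, 49 were on the arrays and 40 at or above the floor. Past 2-fold toward D16 were 5 of these (12.5%) and toward D351 6 (15%), with a median log2 ratio of 0.03. Both shares lie near the 8.87% and 10.6% of all genes.

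Among 12 measured genes of haem synthesis and mitochondrial iron, 2 were past 2-fold each way, with a median of 0.35. Tmem14c, a mitochondrial membrane protein needed to bring the porphyrin intermediate to the last enzymes, measured 15.4, below the floor, in D16 and 325 in D351, at least 18.7-fold higher. Hccs, which attaches haem to cytochrome c, measured 113 and 227, a ratio of 2.01. Toward D16 were Abcb8, a mitochondrial transporter (72.1 in D16, and 11.7, below the floor, in D351, at least 4.15-fold), and Iscu, the scaffold of iron-sulfur cluster assembly (44.7 and 19.2, 2.33-fold, with the D351 value near the floor). Alas2, the form of the first enzyme that red cell precursors use, named after its values were seen, was below the floor in both clones, at 3.93 and 5.70.

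Among 14 measured genes of haem breakdown, transport and binding, 2 were past 2-fold each way and the median was 0.14. Hebp1, a haem-binding protein, was 3.19-fold higher in D16 (225 and 70.7), and the quinone reductase gene Nqo1 3.17-fold (60.4 and 19.0), while its other measured probe set gave a log2 ratio of -0.78. Bach1, a repressor that haem releases from DNA, was 2.63-fold higher in D351 (105 and 276), and Hp, which encodes the haemoglobin scavenger haptoglobin, 2.16-fold (44.2 and 95.4). Hmox1, the inducible haem oxygenase, named after its values were seen, stood at 930 in D16 and 1004 in D351, which is 1.08-fold.

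Among 14 measured genes of iron uptake, storage, export and sensing, 1 was past 2-fold toward D16 and 2 toward D351, with a median of -0.16 that turned to 0.23 with hybridization control scaling. Ceruloplasmin (Cp) and hephaestin (Heph) are related copper-containing oxidases that help iron leave cells, and they went opposite ways. Cp measured 147 in D16 and 3.15, below the floor, in D351, at least 8.46-fold higher in D16. Heph measured 2.26, below the floor, in D16 and 46.3 in D351, at least 2.66-fold higher in D351. Neo1, a co-receptor in the signalling that sets hepcidin, was 2.15-fold higher in D351 (31.8 and 68.4). Of the iron-sensing regulators of Tfrc and ferritin RNA, both named after their values were seen, Ireb2 measured 59.5 and 118, a ratio of 1.99, and Aco1 was below the floor in both clones.

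Of 11 measured genes on the list of proteins that use haem or iron, 9 were lower in D351 (8 with hybridization control scaling), with a median of -0.87 and 2 past 2-fold toward D16 and 0 toward D351, beside 8.87% and 10.6% of all genes. The list held Sod2, whose enzyme carries manganese, and Cyb5r3, whose enzyme carries flavin. Without them 7 of 9 genes were lower in D351, the median was again -0.87, and 1 gene was past 2-fold toward D16 and 0 toward D351. With hybridization control scaling the median of the whole list was -0.48. In that setting 1 gene was past 2-fold each way, beside 4.10% of all genes toward D16 and 19.9% toward D351. The haem enzyme gene Ptgs2 was 3.40-fold higher in D16 (141 and 41.4). The other gene past 2-fold was Sod2 (114 and 48.9, 2.33-fold). The cytochrome c gene Cycs (91.8 and 47.0) and Cyc1 (2740 and 1455, but a log2 ratio of only -0.03 by its second probe set), both named after their values were seen, were just within 2-fold. Higher in D351 were Cyp1b1 (556 and 1065, 1.92-fold) and Cyb5a (448 and 616, 1.38-fold), also named after their values were seen. Cat and Rrm2, named in the same way, were counted as lower in D351. The log2 ratio of Cat was -0.48 by its brightest probe set and 0.07 by its second, and Rrm2 is also on the list of proliferation markers.

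**Figure D4:**
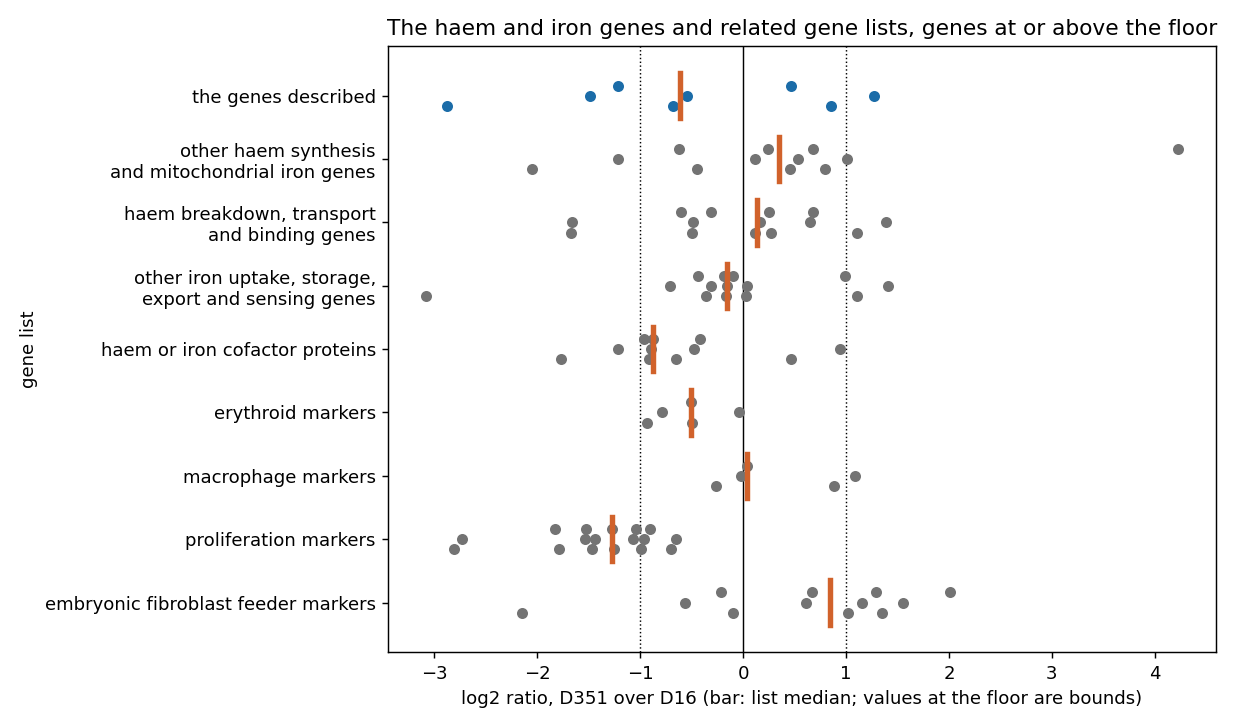
Log2 ratio of D351 over D16 for each gene at or above the floor, by list, with a bar at each list's median, where values at the floor in 1 clone are bounds. The medians are -0.62 for the genes described here (-0.040 without suffixed probe sets), 0.35, 0.14 and -0.16 (0.23 with hybridization control scaling) for the 3 other haem and iron lists, -0.87 for proteins that use haem or iron and -1.27 for proliferation markers.

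Proliferation markers lay on the same side as Alad, Urod and Cpox. By their brightest probe sets all 17 measured markers were lower in D351 in the main setting and under each of the 4 other scalings, but Mki67 had a log2 ratio of -2.73 by that probe set and 0.29 by its second. Past 2-fold were 12 of them (8 with hybridization control scaling), beside 8.87% of all genes toward D16 (4.10% with that scaling). The markers had a median of -1.27 and a summed level of 7628 in D16 and 2881 in D351. Their part in the results on haem and iron genes was not tested. Erythroid markers were near or below the floor: 10 of 15 were below it in both clones, the highest value among the 15 was 33.2, and the summed level was 204 in D16 and 158 in D351. Of the defining ones, Gata1, Epor and Slc4a1 were below the floor in both clones, while Klf1 was just above it in both, at 20.2 and 19.6. Hba-a1 measured 30.1 in D16 and 13.5, below the floor, in D351. A probe set that the annotation assigns to several alpha globin genes, and which therefore stands for no gene in these counts, measured 46.3 in D16 and 51.1 in D351, above the floor in both. Macrophage markers summed to 163 and 239, with Ptprc, Adgre1 and Lyz2 below the floor in both clones and Cd14 at 70.1 and 129. Cd68, the only 1 of them past 2-fold in the main setting, measured 3.74, below the floor, in D16 and 36.9 in D351, at least 2.12-fold higher. All 8 hepatocyte markers on the arrays were below the floor. Markers of fibroblasts, the feeder cells of the cloning step, had a median of 0.85 and sums of 11623 and 17314. Past 2-fold were 6 of these 12 toward D351 and 1 toward D16, beside 10.6% and 8.87% of all genes. Of those toward D351, second probe sets gave log2 ratios of 0.41 for Col1a1 and -0.62 for Col1a2. Every measured probe set of Col3a1 and Col6a1 passed 2-fold. For RNA integrity, control probe sets at the 3′ end read 1.81 times those at the 5′ end in D16 and 1.37 times in D351 for Actb, and 1.56 and 1.44 times for Gapdh. The part of these markers and controls in the results was not tested.

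The labelled cell type was checked on 15 mesenchymal and vascular progenitor markers on the arrays, of which 12 were at or above the floor. Pdgfra (762 and 714), Acta2 (940 and 1685) and Thy1 (1535 and 1041) were well above it in both clones. By its second probe set Pdgfra had a log2 ratio of -1.54, beside -0.09 by the brighter. Pdgfra and Thy1 are also on the list of fibroblast markers, so they do not tell the labelled cells from feeder cells. Vim, the intermediate filament gene of mesenchymal cells, was near the floor at 22.3 and 23.5 by its probe set. Past 2-fold in the main setting were 1 of the 12 toward D16 and 3 toward D351, beside 8.87% and 10.6% of all genes. Cd34, the 1 toward D16, measured 475 in D16 and 6.71, below the floor, in D351. Toward D351 were Pdgfrb (54.4 and 197, 3.62-fold), Tagln (643 and 1883, 2.93-fold) and Flt1 (16.2, below the floor, and 66.1, at least 3.80-fold). The endothelial and progenitor genes Kit, Kdr and Cdh5 were below the floor in both.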

How the data were processed

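Total RNA of each clone was measured on 1 Affymetrix U74A array. The table deposited by the authors gives 1 linear intensity for each probe set. How background and scale were set is not given in the sources used here. After trimming 2% at each end, both arrays had a mean of 100.1, as values scaled to a shared target would. The labels name the U74A array; the gene names come from annotation made for its version 2, and which version was hybridized was not checked. That annotation named 1 gene for 10833 of 12422 non-control probe sets, several for 396 and none for 1193. Symbols were updated by Entrez number to RefSeq (GRCm38.p6), and the files name no build. Small factors (0.983 for D16 and 1.02 for D351) gave both arrays 1 median log2 level over the non-control probe sets that reached the floor on each. Values under the floor, the 40th percentile, were set to it. Each gene was read by its brightest probe set. Precision is limited by the number of arrays, and no p-value was computed.

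The genes and lists were chosen with earlier results of these data known. Besides the 9 genes, the text names the genes past 2-fold of each of the 4 haem and iron lists, at most 4 and largest first, and other genes named are marked. Marker lists are given by counts and sums, with some members by name, chosen with their values known. The ratio functions were tested on simulated arrays. Alternatives covered scaling, floor, pseudocount, probe set rule and threshold. Python 3.11.15, numpy 2.4.6, pandas 2.3.3, scipy 1.17.1, statsmodels 0.14.6 and matplotlib 3.10.9 were used.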

Additional observations from a re-analysis of the deposited data

How the results depend on the processing

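No paired analysis was possible because the clones were hybridized to 1 array each, and no replicate could be left out. Of 69 ratios of single genes under the alternatives, 67 moved by less than the spread between probe sets and 0 reversed; Cpox was -0.89 with the floor at the 60th percentile and Ppox at least 2.53 with it at the 25th. The log2 ratio of Alad ranged from -2.93 to -2.48. Without suffixed probe sets, Cpox, Tfrc and Fech had no value and the median of the remaining 6 genes was -0.040. At thresholds of 1.5-fold and 3-fold the count toward D16 was 4 and 1 of 8, beside 1282 and 159 of 6098 genes. It was 2 of 8 with hybridization control scaling or averaged probe sets, beside 4.10% and 8.29% of all genes. It was 2 of 7 with the floor at the 60th percentile and 2 of 6 without suffixed probe sets, beside 7.38% and 8.68%. The count toward D351 was 2 of 8 with hybridization control scaling and 0 of 7 with the 60th percentile floor, beside 19.9% and 9.17%. At 1.5-fold and 3-fold it was 2 and 0 of 8, beside 1285 and 253 of 6098 genes.

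Over all genes, the counts toward D16 and D351 were 541 and 645. They were 250 and 1214 with hybridization control scaling, 327 and 406 with the floor at the 60th percentile, 1282 and 1285 at 1.5-fold, and 159 and 253 at 3-fold. With the floor at the 25th percentile 856 were higher in D16. Of 45 other haem and iron genes, 8 were higher in D16 with the floor at the 25th percentile, beside 11.9% of all genes. With it at the 60th, 2 of 30 were higher in D16 and 3 in D351, beside 7.38% and 9.17%. With a pseudocount of 16 and no floor, 3 of 40 were higher in D351, beside 8.72%. Values near the floor limit Ppox, Fech and the second probe sets of Urod and Tfrc. Leaving Sod2 and Cyb5r3 out of the list of proteins that use haem or iron was chosen after seeing the data. The cause of these shifts was not tested.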
